A study of Mus musculus with 12 samples.

Results

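Collagens and their partner proteins build the extracellular matrix, the protein scaffold around muscle fibres, and 63 of their genes were looked up in muscle transcriptomes of diabetic mice. They were chosen by symbol: every gene called Col, a number, the letter a and a number (44 symbols), and 19 named genes for collagen processing, proteoglycans, glycoproteins, proteases and protease inhibitors. Of the 63 genes, 40 reached 1 FPKM (FPKM scales fragments by gene length and library depth) in at least 3 of the 12 libraries and were tested, among 10666 tested genes of the 22390 features in the table. These 40 were 21 of the 44 collagens and each of the 19 named genes. The 23 collagens that were not tested peaked between 0.0158 and 0.996 FPKM. They were Col2a1, Col11a1, Col24a1 and Col27a1 of the fibrillar class, Col4a3, Col4a4, Col4a5 and Col4a6 of type IV, Col6a4, Col6a5 and Col6a6 of type VI, Col9a1, Col9a2, Col9a3 and Col19a1 of the fibril-associated class, the transmembrane Col13a1, Col17a1, Col23a1 and Col25a1, and Col8a2, Col10a1, Col26a1 and Col28a1. Of the 40 tested genes, 29 were at 1 FPKM or more in all 12 libraries, and Timp1 was tested only through its HIIT libraries, so that a difference of HIIT from the other groups was built into its choice. Col8a1 reached 1 FPKM in 2 HIIT libraries and 1 control library, and in 0 combination and 0 semaglutide libraries. A lower level with semaglutide was thus built into the choice of Col8a1.

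All animals were male db/db mice of the C57BL/KsJ background, whose mutated leptin receptor leads to obesity and diabetes, and they were 8 weeks old at the start of an 8-week intervention. The combination group (3 libraries) had high-intensity interval training (HIIT) and semaglutide. The semaglutide group (3 libraries) had the drug alone, the HIIT group (3 libraries) had the training alone, and the control group (3 libraries) was reared normally and stayed sedentary. Training was on a motorized treadmill in 10 runs of 4 min, each followed by 2 min at lower speed, 5 days a week, and the sample titles give 60 min. Semaglutide, which activates the GLP-1 receptor for long after a dose, was injected under the skin every day, at 30 nmol/kg in the protocol text and 0.05 mg/kg in the titles. No injection is named for the HIIT and control groups, so effects of drug and of injection cannot be told apart. Every group carries the db/db genotype, and no lean mouse is in this comparison. The labels do not describe the animal behind each library, so the spread that the p-values measure may in part be technical.

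Collagens are trimers of alpha chains that are folded and hydroxylated in the endoplasmic reticulum, secreted, trimmed by proteases and cross-linked outside the cell. In skeletal muscle, types I and III with some type V form the fibrils of the connective tissue around fibres and fascicles, type IV forms the network of the basement membrane on each fibre and capillary, and type VI forms beaded filaments that link both layers. Most of these genes are expressed mainly by fibroblasts and fibro-adipogenic progenitors, with type IV also from endothelial and muscle cells. Training and diabetes are both known to change this matrix.

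The labels call the tissue muscle, and the protocol names soleus among the harvested organs. The fast myosin gene Myh4 was at 4670 to 8900 FPKM and the slow myosin gene Myh7, typical of soleus, at 5.27 to 108 FPKM over the 12 libraries. By group, Myh7 was at 5.27 to 57.2 FPKM in combination, 9.54 to 73.1 FPKM in semaglutide, 11.6 to 36.2 FPKM in HIIT and 48.2 to 108 FPKM in control libraries. The part of fibre type in the matrix values was not tested. Depth, estimated from the smallest FPKM steps, was about 17200000 to 21300000 fragments per library, so a gene near 1 FPKM rests on few fragments. The liver gene Alb (albumin) was at 178 FPKM in HIIT replicate 1 and at 399 and 714 FPKM in control replicates 1 and 2, against 108 FPKM in control replicate 3 and 0.773 to 27.6 FPKM in the other 8 libraries. Results are therefore also given without those 3 liver-rich libraries, which leaves control with 1 library and HIIT with 2. HIIT replicate 1 had the highest level of 25 of the 40 tested matrix genes, and control replicate 3 had a median deviation of -0.27 from the 12-library mean on the log2(FPKM + 1) scale, against 0.27 and 0.31 in control replicates 1 and 2. Over the tested matrix genes the median SD within a group on that scale was 0.31 in combination, 0.19 in semaglutide, 0.40 in HIIT and 0.34 in control libraries, above the 0.15, 0.12, 0.17 and 0.13 of all tested genes in the same order. These are bulk samples, in which fewer cells of a type and less RNA per cell cannot be told apart.

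Changes are differences in mean log2(FPKM + 1) between groups of 3 libraries with the limma standard error (SE), and a gene is said to have risen or fallen at a Benjamini-Hochberg adjusted p below 0.05 over the 10666 tested genes. As one picture, HIIT muscles had the highest mean of 34 of the 40 tested matrix genes and semaglutide muscles the lowest mean of 29. Combination muscles had the highest mean of none of them and the lowest of 8. The same ranks were not counted over all tested genes. Collagen transcripts together made up 0.0156 to 0.0289% of all FPKM in combination, 0.0154 to 0.0193% in semaglutide, 0.0383 to 0.0586% in HIIT and 0.0193 to 0.0343% in control libraries. HIIT libraries lay above all others in that share.

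**Figure D1:**
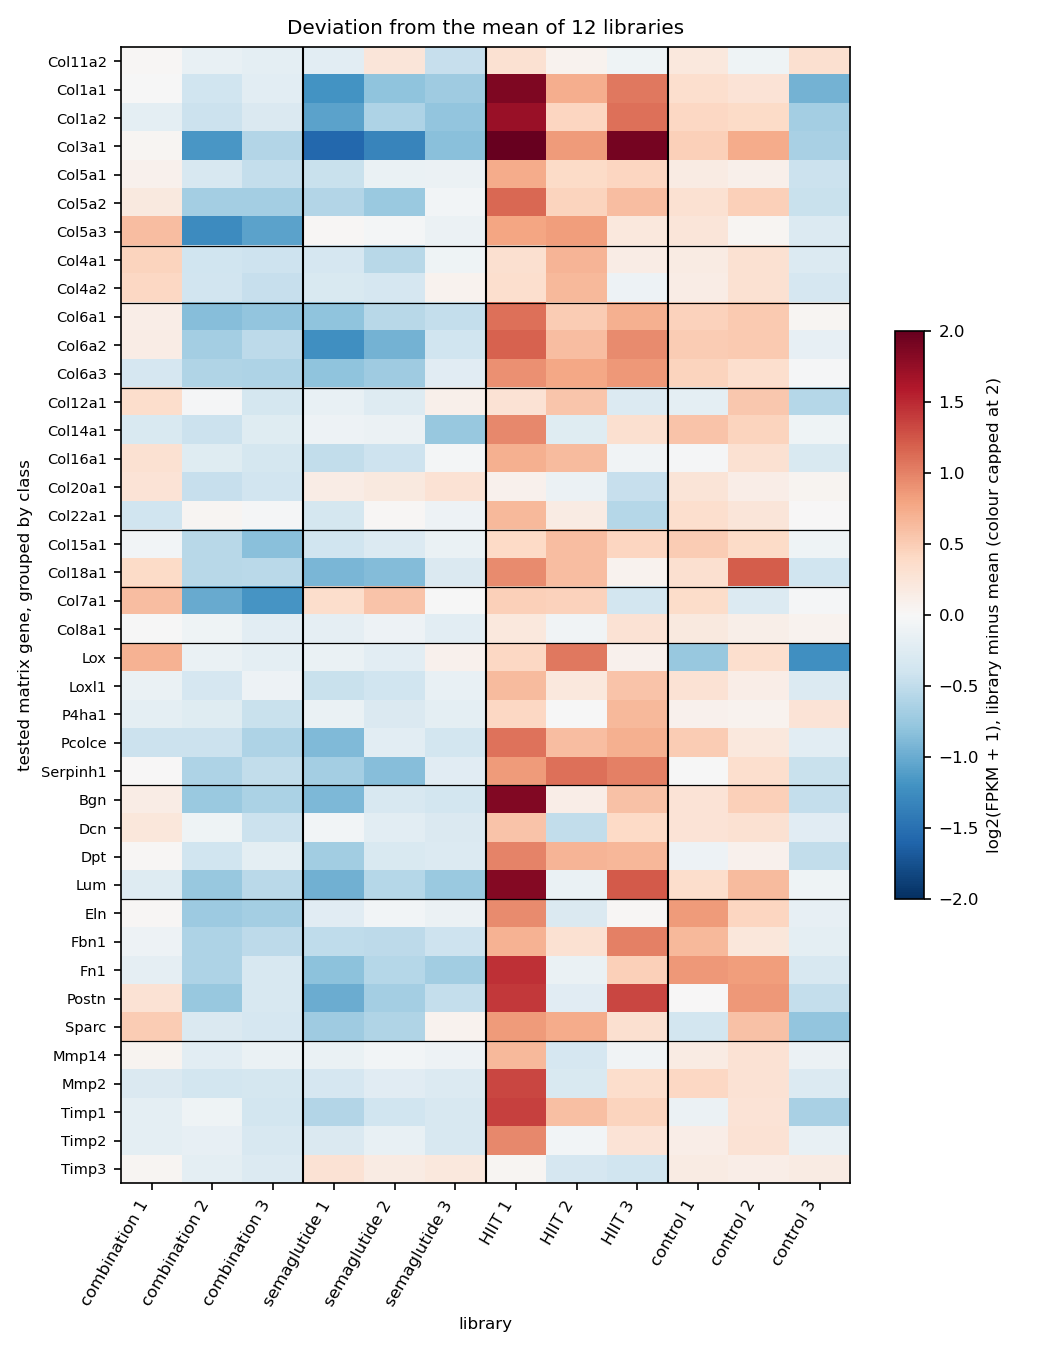
Each tested matrix gene (rows, by class) in each library (columns), as the log2(FPKM + 1) of the library minus the mean of the 12 libraries, with colours capped at 2. The HIIT columns are mostly red, with HIIT replicate 1 the reddest, and the semaglutide columns and combination replicates 2 and 3 are mostly blue. Timp3 in the bottom row runs the other way in the semaglutide columns and in HIIT replicates 2 and 3, but not in combination replicates 2 and 3.

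The fibrillar collagens type I and type III were highest in every HIIT library, and they fell in semaglutide against HIIT. Col3a1, the single chain of type III collagen, had 17.1, 6.88 and 10.8 FPKM in combination, 4.97, 6.07 and 8.89 FPKM in semaglutide, 73.6, 30.8 and 65.4 FPKM in HIIT and 23.5, 28.6 and 10.3 FPKM in control libraries. Each HIIT library lay above every other library, and semaglutide libraries lay below every control library. Col3a1 fell in combination against HIIT (-2.18 ± 0.44, adjusted p = 0.0343) and in semaglutide against HIIT (-2.85 ± 0.44, adjusted p = 0.0106). The combination call stands in 7 of 12 fits that leave out 1 library. Col3a1 did not pass in semaglutide against control (-1.43 ± 0.44, adjusted p = 0.11) or in HIIT against control (1.42 ± 0.44, adjusted p = 0.437). Col1a1, the alpha 1 chain of type I collagen, was at 8.42, 6.19 and 7.19 FPKM in combination, 3.12, 4.43 and 4.75 FPKM in semaglutide, 33.6, 14.6 and 18.5 FPKM in HIIT and 10.9, 10.4 and 3.9 FPKM in control muscles. Its HIIT libraries stood above all others, and the combination libraries above all semaglutide ones. Col1a1 fell in semaglutide against HIIT (-2.12 ± 0.36, adjusted p = 0.0144) but missed the threshold in combination against HIIT (-1.42 ± 0.36, adjusted p = 0.0572) and in HIIT against control (1.33 ± 0.36, adjusted p = 0.437). Col1a2, the partner alpha 2 chain, had 12.5, 10.4 and 11.6 FPKM in combination, 6.29, 9.01 and 7.93 FPKM in semaglutide, 50.0, 19.7 and 32.1 FPKM in HIIT and 19.4, 19.1 and 8.65 FPKM in control libraries. The order of the groups was as for Col1a1, and Col1a2 fell in semaglutide against HIIT (-1.91 ± 0.34, adjusted p = 0.0163). The ratio of Col1a1 to Col1a2 FPKM was 0.593 to 0.671 in combination, 0.491 to 0.598 in semaglutide, 0.576 to 0.743 in HIIT and 0.451 to 0.561 in control libraries, a narrow band beside the range of either gene. The ratio of Col3a1 to Col1a1 was 1.11 to 2.03 in combination, 1.37 to 1.87 in semaglutide, 2.11 to 3.53 in HIIT and 2.16 to 2.75 in control libraries, lower in every semaglutide-treated library than in any other. The ratio of Col3a1 to the other type I chain, Col1a2, overlapped between combination and control, at 0.66 to 1.36 in combination, 0.674 to 1.12 in semaglutide, 1.47 to 2.03 in HIIT and 1.19 to 1.5 in control libraries.

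The 300-base windows around the annotated starts of Col3a1 and Col1a2 are shown because these are fibrillar genes with wide differences between groups. Windows come from RefSeq on build GRCm38.p6, 250 bases before to 50 after the start, whereas the submitters' processing notes name GRCm39 for the expression table. A window was found for 28 of the 40 tested genes (31 windows), and not for Col1a1. Motifs were searched on both strands as TATAAA (the TATA box core), CCAAT (the CCAAT box) and GGGCGG (the GC box core), none of which contains another. Capitals mark TATAAA in the Col3a1 window (chr1:45311288-45311587, plus strand) and CCAAT, on either strand, in the Col1a2 window (chr6:4505368-4505667, plus strand).
Col3a1: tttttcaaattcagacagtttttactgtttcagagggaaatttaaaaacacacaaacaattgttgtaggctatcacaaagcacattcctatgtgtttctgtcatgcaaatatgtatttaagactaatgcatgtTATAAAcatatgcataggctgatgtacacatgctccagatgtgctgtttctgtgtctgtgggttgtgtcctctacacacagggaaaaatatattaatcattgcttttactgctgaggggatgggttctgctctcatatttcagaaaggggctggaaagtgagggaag
Col1a2: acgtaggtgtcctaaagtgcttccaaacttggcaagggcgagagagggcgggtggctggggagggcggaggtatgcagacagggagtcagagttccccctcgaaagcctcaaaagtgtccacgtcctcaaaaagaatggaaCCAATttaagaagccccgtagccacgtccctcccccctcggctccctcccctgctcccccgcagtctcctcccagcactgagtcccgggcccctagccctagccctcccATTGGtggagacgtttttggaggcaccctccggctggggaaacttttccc
TATAAA was in 5 of the 31 matrix windows and in 13.6% of 32851 windows of the same length genome-wide. CCAAT was in 11 of 31 against 37.4% of windows, and GGGCGG in 21 of 31 against 35.7%. A match of these letters is a description and not evidence of a bound site.

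Type V collagen, a minor fibrillar type that starts type I fibrils, was likewise highest on average in HIIT muscles. Col5a1 was at 4.44, 3.1 and 2.66 FPKM in combination, 2.75, 3.65 and 3.7 FPKM in semaglutide, 7.51, 5.65 and 5.87 FPKM in HIIT and 4.73, 4.49 and 2.79 FPKM in control muscles. HIIT libraries stood above all others, and Col5a1 fell in semaglutide against HIIT (-0.75 ± 0.19, adjusted p = 0.0486). That call stands in 2 of 12 fits that leave out 1 library and in 3 of 9 other settings, and without the liver-rich libraries it is -0.64 (adjusted p = 0.116). Col5a2, whose gene neighbours Col3a1, had 4.36, 1.91 and 1.91 FPKM in combination, 2.11, 1.78 and 3.48 FPKM in semaglutide, 9.41, 5.38 and 6.19 FPKM in HIIT and 4.77, 5.47 and 2.44 FPKM in control libraries. Both semaglutide-treated groups lay below HIIT without overlap, while the pairwise tests did not pass. Averaged over exercise, that is with both pairs of groups with and without the drug in 1 contrast, Col5a2 fell with semaglutide (-0.85 ± 0.22, adjusted p = 0.0272), a call that stands in 5 of 12 such fits and is -0.47 (adjusted p = 0.343) without the liver-rich libraries. Col5a3 was at 10.7, 2.21 and 2.65 FPKM in combination, 6.75, 6.47 and 6.04 FPKM in semaglutide, 12.2, 12.6 and 7.85 FPKM in HIIT and 8.03, 6.84 and 5.35 FPKM in control muscles. Combination replicate 1 was near the HIIT level and the other combination libraries were the lowest of all 12, and no test passed. The remaining tested fibrillar gene, Col11a2, ranged from 0.798 to 2.1 FPKM with all groups overlapping.

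**Figure D2:**
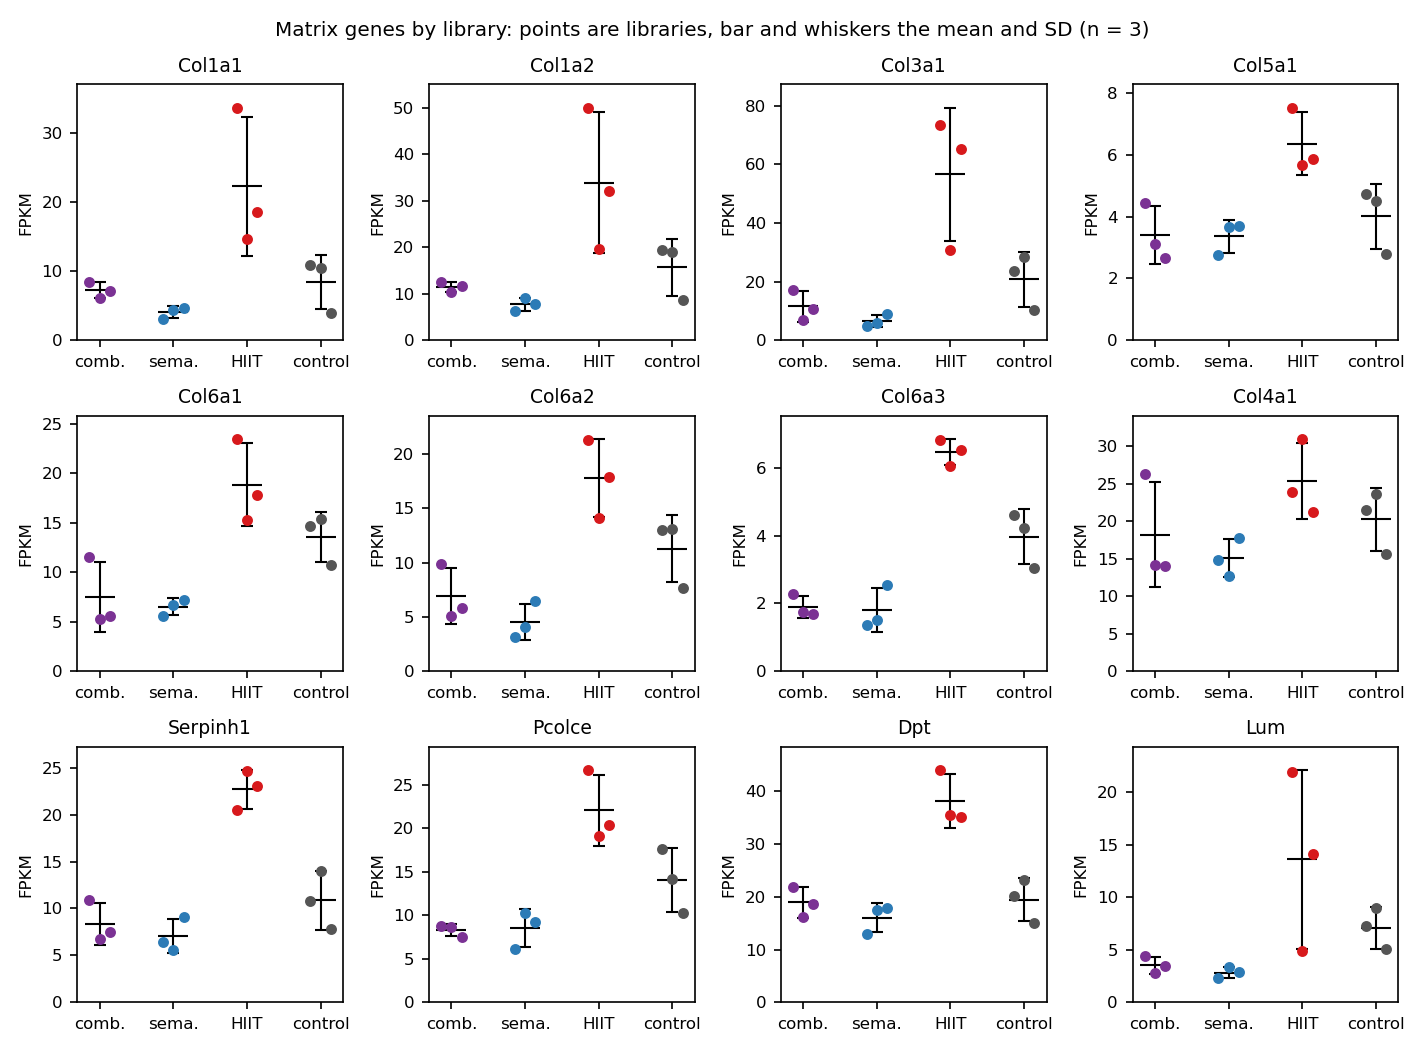
FPKM of 12 matrix genes in each library (points), with the mean and SD of 3 libraries per group (bar and whiskers), for combination, semaglutide, HIIT and control muscles. HIIT points stand above all others for Col3a1 (30.8 to 73.6 FPKM) and Serpinh1 (20.5 to 24.6 FPKM), while those of Col4a1 overlap with control and combination.

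Type VI collagen, the beaded filament that joins fibrils to the basement membrane and is mutated in Ullrich and Bethlem muscle disease, was lower in both semaglutide-treated groups than in HIIT for each of its 3 tested chains. Col6a3, its large alpha 3 chain, had 2.28, 1.74 and 1.69 FPKM in combination, 1.36, 1.52 and 2.54 FPKM in semaglutide, 6.81, 6.05 and 6.53 FPKM in HIIT and 4.61, 4.23 and 3.05 FPKM in control libraries. The combination and semaglutide libraries overlapped with each other, control libraries lay above both, and HIIT libraries above control, with no overlap between these steps. Col6a3 fell in combination against HIIT (-1.37 ± 0.17, adjusted p = 0.00461), in semaglutide against HIIT (-1.43 ± 0.17, adjusted p = 0.00325), in combination against control (-0.77 ± 0.17, adjusted p = 0.0304) and in semaglutide against control (-0.83 ± 0.17, adjusted p = 0.0299). Without the 3 liver-rich libraries the control comparisons no longer passed, at -0.49 (adjusted p = 0.452) for combination and -0.55 (adjusted p = 0.441) for semaglutide, with 1 control library left. Those against HIIT still did, at -1.33 (adjusted p = 0.036) for combination and -1.40 (adjusted p = 0.025) for semaglutide. Col6a1 was at 11.6, 5.33 and 5.63 FPKM in combination, 5.56, 6.75 and 7.25 FPKM in semaglutide, 23.5, 15.3 and 17.8 FPKM in HIIT and 14.7, 15.4 and 10.7 FPKM in control muscles. Col6a2, which lies beside Col6a1 on chromosome 10, had 9.89, 5.1 and 5.82 FPKM in combination, 3.18, 4.06 and 6.43 FPKM in semaglutide, 21.3, 14.1 and 17.9 FPKM in HIIT and 13, 13.1 and 7.7 FPKM in control libraries. For both genes the 2 semaglutide-treated groups lay below HIIT without overlap. Col6a1 fell in combination against HIIT (-1.28 ± 0.25, adjusted p = 0.0305) and in semaglutide against HIIT (-1.39 ± 0.25, adjusted p = 0.0181). Each of these Col6a1 calls stands in 8 of 12 fits that leave out 1 library. Col6a2 fell in the same comparisons (-1.27 ± 0.28, adjusted p = 0.042 and -1.78 ± 0.28, adjusted p = 0.0106), of which the combination call stands in 5 of 12 fits that leave out 1 library, and came close to the threshold in semaglutide against control (-1.15 ± 0.28, adjusted p = 0.0503). The Col6a1 change in combination against control did not pass (-0.84 ± 0.25, adjusted p = 0.0743). The ratio of Col6a1 to Col6a2 FPKM was 0.967 to 1.17 in combination, 1.13 to 1.75 in semaglutide, 0.993 to 1.1 in HIIT and 1.13 to 1.39 in control libraries. Semaglutide replicates 1 and 2, at 1.75 and 1.66, had the highest ratios.

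Type IV collagen, the basement membrane network, did not pass any test. Col4a1 was at 26.3, 14.2 and 14.1 FPKM in combination, 14.8, 12.7 and 17.8 FPKM in semaglutide, 23.9, 31 and 21.2 FPKM in HIIT and 21.5, 23.7 and 15.6 FPKM in control muscles. Semaglutide libraries lay below HIIT libraries, and combination replicate 1 (26.3 FPKM) was second only to HIIT replicate 2. Col4a2 had 22.1, 12.3 and 11.7 FPKM in combination, 13.1, 12.8 and 17.2 FPKM in semaglutide, 21, 26.3 and 15.2 FPKM in HIIT and 18.2, 20.6 and 12.8 FPKM in control libraries. Its groups overlapped throughout. These genes face away from each other on chromosome 8 with transcription starts 21 bases apart, and their windows share 78 bases. The ratio of Col4a1 to Col4a2 FPKM was 1.15 to 1.21 in combination, 0.995 to 1.13 in semaglutide, 1.14 to 1.40 in HIIT and 1.15 to 1.22 in control libraries, lowest in the semaglutide libraries. The Col4a2 window (GRCm38.p6 chr8:11312555-11312854, plus strand) is printed because the pair shares it, with capitals for the bases that also belong to the Col4a1 window.
Col4a2: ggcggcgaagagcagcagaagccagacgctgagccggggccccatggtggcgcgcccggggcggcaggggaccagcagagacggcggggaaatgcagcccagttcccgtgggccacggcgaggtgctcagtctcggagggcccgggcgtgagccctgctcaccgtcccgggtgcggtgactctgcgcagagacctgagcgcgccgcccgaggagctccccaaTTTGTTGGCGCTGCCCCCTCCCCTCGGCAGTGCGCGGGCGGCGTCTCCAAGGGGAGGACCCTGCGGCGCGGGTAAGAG
Both windows hold CCAAT and GGGCGG. The ratio of Col3a1 to Col4a1 FPKM was 0.486 to 0.769 in combination, 0.336 to 0.499 in semaglutide, 0.993 to 3.08 in HIIT and 0.656 to 1.21 in control libraries. Combination and semaglutide libraries lay below every HIIT library in that ratio, and semaglutide libraries also below every control library. The difference between the classes was not tested.

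Among the other collagens, the multiplexins, which sit at basement membranes and release antiangiogenic fragments, were the only further class with a gene that passed. Col15a1 was at 3.77, 2.36 and 1.78 FPKM in combination, 2.77, 3.08 and 3.5 FPKM in semaglutide, 5.51, 6.61 and 5.68 FPKM in HIIT and 6, 5.46 and 3.67 FPKM in control muscles. Combination libraries lay below HIIT libraries and overlapped with control only at combination replicate 1. Col15a1 fell in combination against HIIT (-0.96 ± 0.20, adjusted p = 0.0305) and in combination against control (-0.75 ± 0.20, adjusted p = 0.0466). The call against HIIT stands in 7 of 12 fits that leave out 1 library. The control call stands in 3 of 12 fits that leave out 1 library and is lost without the 3 liver-rich libraries (-0.40, adjusted p = 0.591). Col18a1 had 3.62, 1.39 and 1.44 FPKM in combination, 0.879, 0.932 and 1.88 FPKM in semaglutide, 5.82, 4.4 and 2.7 FPKM in HIIT and 3.4, 7.17 and 1.69 FPKM in control libraries. Control replicate 2 was the highest of all libraries, and the gene fell only with semaglutide averaged over exercise (-0.92 ± 0.28, adjusted p = 0.049), a call that stands in 3 of 12 such fits and is -0.44 (adjusted p = 0.425) without the liver-rich libraries.

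Fibril-associated (FACIT) collagens and the anchoring and short-chain types gave no call. Col12a1 was at 1.07, 0.599 and 0.28 FPKM in combination, 0.471, 0.364 and 0.753 FPKM in semaglutide, 0.983, 1.4 and 0.354 FPKM in HIIT and 0.431, 1.36 and 0.0931 FPKM in control muscles. Col22a1, a collagen of the muscle-tendon junction, had 1.16, 1.93 and 1.8 FPKM in combination, 1.24, 1.89 and 1.66 FPKM in semaglutide, 3.48, 2.19 and 0.921 FPKM in HIIT and 2.61, 2.36 and 1.87 FPKM in control libraries. Groups overlapped in every pair for both genes. Col20a1 was at 1.3, 0.385 and 0.463 FPKM in combination, 1.1, 1.18 and 1.32 FPKM in semaglutide, 1.02, 0.749 and 0.378 FPKM in HIIT and 1.28, 1.08 and 0.988 FPKM in control muscles. Col20a1 was higher in each semaglutide library than in each HIIT library, without passing the test. Col7a1, the anchoring fibril collagen, had 5.78, 1.21 and 0.961 FPKM in combination, 4.67, 5.56 and 3.39 FPKM in semaglutide, 5.15, 5.07 and 2.42 FPKM in HIIT and 4.72, 2.64 and 3.37 FPKM in control libraries. Combination replicate 1 was the highest and the other combination libraries the lowest of the 12, and the change in combination against semaglutide did not pass (-0.83 ± 0.43, adjusted p = 0.464). Col14a1 ranged from 0.344 to 3.46 FPKM, Col16a1 from 0.437 to 2.31 FPKM and Col8a1 from 0.543 to 1.18 FPKM. For Col14a1 and Col8a1 the combination and semaglutide libraries lay below all control libraries, and no test passed. Only libraries without the drug carried Col8a1 past the filter, so its difference describes how it was kept.

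**Figure D3:**
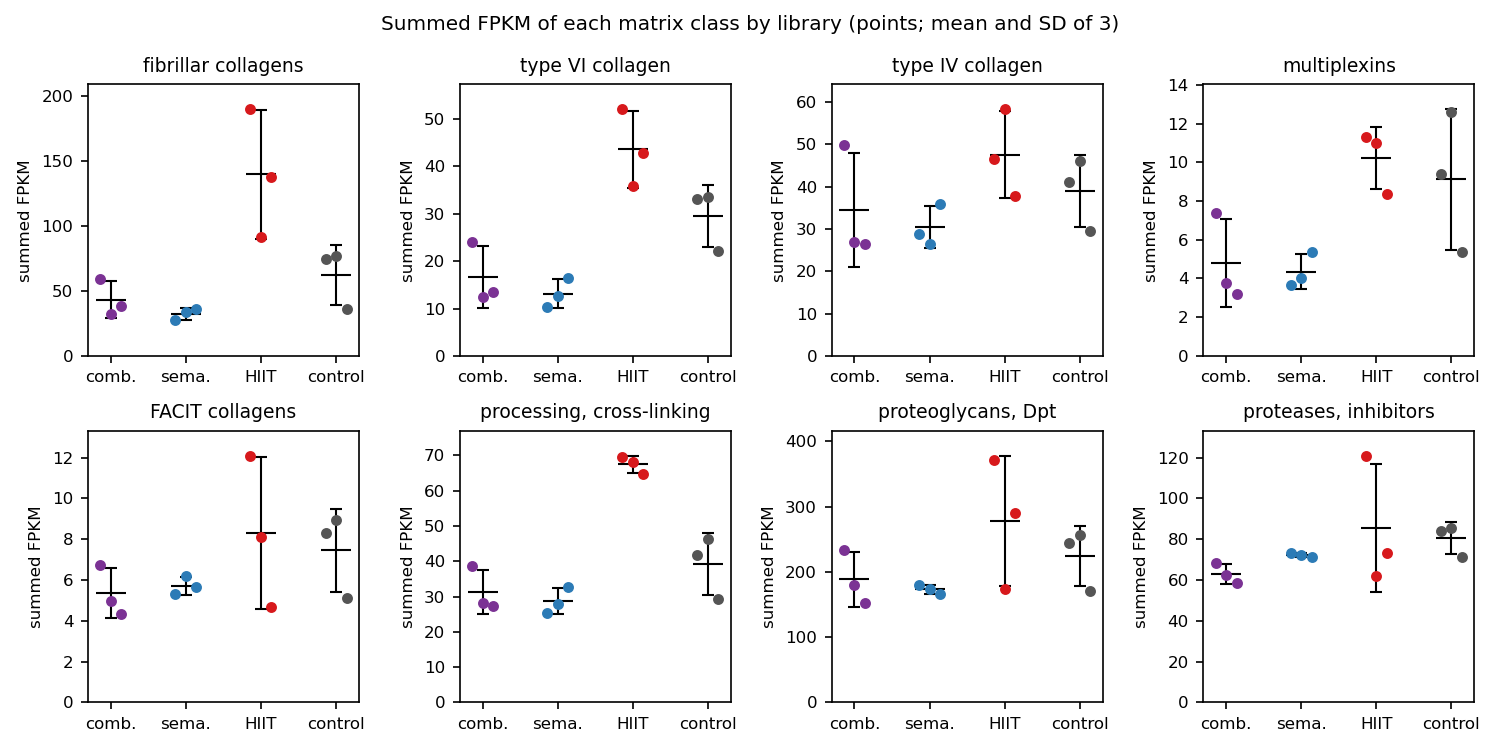
Summed FPKM of the genes of each matrix class in each library (points), with the mean and SD of 3 libraries per group, for combination, semaglutide, HIIT and control muscles. The HIIT sums of the processing and cross-linking genes (64.7 to 69.6) and of type VI collagen (35.9 to 52.1) stand above all others, whereas those of type IV and the FACIT collagens overlap between HIIT and control.

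Genes for making, trimming and cross-linking collagen had a summed level above all other libraries in HIIT muscles, and 4 of the 5 fell in at least 1 comparison with HIIT. Serpinh1, which encodes the collagen chaperone HSP47, was at 10.9, 6.72 and 7.45 FPKM in combination, 6.45, 5.59 and 9.13 FPKM in semaglutide, 20.5, 24.6 and 23 FPKM in HIIT and 10.8, 14 and 7.77 FPKM in control muscles. HIIT libraries stood above all others. Serpinh1 fell in combination against HIIT (-1.37 ± 0.22, adjusted p = 0.018) and in semaglutide against HIIT (-1.58 ± 0.22, adjusted p = 0.00675). In HIIT against control the Serpinh1 change had an unadjusted p of 0.000649 and did not pass the adjustment (1.03 ± 0.22, adjusted p = 0.437). Pcolce, an enhancer of the protease that removes the C-terminal propeptide, had 8.74, 8.69 and 7.52 FPKM in combination, 6.12, 10.3 and 9.19 FPKM in semaglutide, 26.7, 19.1 and 20.4 FPKM in HIIT and 17.6, 14.2 and 10.3 FPKM in control libraries. Combination and semaglutide libraries lay at or below the lowest control library and HIIT libraries above the highest. Pcolce fell in combination against HIIT (-1.30 ± 0.21, adjusted p = 0.0172) and in semaglutide against HIIT (-1.29 ± 0.21, adjusted p = 0.0103). P4ha1, a catalytic subunit of collagen prolyl hydroxylase, was at 4.32, 4.18 and 3.47 FPKM in combination, 4.54, 4 and 4.3 FPKM in semaglutide, 7.15, 5.08 and 8.55 FPKM in HIIT and 5.47, 5.43 and 6.37 FPKM in control muscles. All semaglutide-treated libraries lay below all others, and P4ha1 fell in combination against HIIT (-0.65 ± 0.15, adjusted p = 0.0424). The P4ha1 call stands in 2 of 12 fits that leave out 1 library and in 4 of 9 other settings, and without the liver-rich libraries it is -0.62 (adjusted p = 0.163). Loxl1, a lysyl oxidase that acts on elastin, had 2.98, 2.44 and 3.06 FPKM in combination, 2.19, 2.31 and 2.91 FPKM in semaglutide, 5.74, 4.03 and 5.46 FPKM in HIIT and 4.33, 3.77 and 2.61 FPKM in control libraries. It fell in semaglutide against HIIT (-0.80 ± 0.16, adjusted p = 0.0229), where the libraries did not overlap. This Loxl1 call stands in 8 of 12 fits that leave out 1 library. Lox, the lysyl oxidase that cross-links collagen and elastin, was at 11.7, 6.13 and 5.84 FPKM in combination, 6.1, 5.73 and 7.3 FPKM in semaglutide, 9.42, 15.2 and 7.28 FPKM in HIIT and 3.62, 8.84 and 2.34 FPKM in control muscles. Its groups overlapped in every pair, and control replicates 1 and 3 were the lowest libraries. The HIIT against control change of Lox did not pass (1.07 ± 0.39, adjusted p = 0.439).

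The Serpinh1 window (GRCm38.p6 chr7:99353190-99353489, minus strand) is shown as that of a processing gene whose HIIT libraries stood apart from all others, with GGGCGG in capitals.
Serpinh1: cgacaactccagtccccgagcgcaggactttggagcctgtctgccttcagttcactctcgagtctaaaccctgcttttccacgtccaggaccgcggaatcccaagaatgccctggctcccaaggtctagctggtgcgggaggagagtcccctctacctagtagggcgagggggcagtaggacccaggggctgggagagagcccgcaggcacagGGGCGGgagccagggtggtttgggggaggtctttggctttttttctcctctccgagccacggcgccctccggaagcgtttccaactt
It holds that motif once and neither TATAAA nor CCAAT.

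Dermatopontin and the small leucine-rich proteoglycans bind collagen fibrils and set their spacing. Dpt (dermatopontin) had 21.9, 16.1 and 18.7 FPKM in combination, 12.9, 17.4 and 17.8 FPKM in semaglutide, 44, 35.4 and 35 FPKM in HIIT and 20.1, 23.1 and 15.1 FPKM in control libraries. HIIT libraries stood above all others, which overlapped among themselves. Dpt fell in combination against HIIT (-0.98 ± 0.17, adjusted p = 0.0201) and in semaglutide against HIIT (-1.20 ± 0.17, adjusted p = 0.00675). Its combination call stands in 8 of 12 fits that leave out 1 library. In HIIT against control the change had an unadjusted p of 0.000169 and did not pass the adjustment (0.95 ± 0.17, adjusted p = 0.437). Lum (lumican) was at 4.4, 2.79 and 3.43 FPKM in combination, 2.29, 3.34 and 2.86 FPKM in semaglutide, 21.9, 4.86 and 14.1 FPKM in HIIT and 7.24, 9.01 and 5.04 FPKM in control muscles. Every semaglutide-treated library lay below every other one, and HIIT replicate 2 lay just below the lowest control library. Lum fell in semaglutide against HIIT (-1.73 ± 0.40, adjusted p = 0.0397), a call that stands in 4 of 12 fits that leave out 1 library, and missed the threshold in combination against HIIT (-1.49 ± 0.40, adjusted p = 0.0663). Dcn (decorin), the gene with the highest mean level of the 40, ranged from 119 to 188 FPKM in combination, 132 to 156 FPKM in semaglutide, 114 to 241 FPKM in HIIT and 138 to 200 FPKM in control libraries, and passed no test although its gene neighbours Lum. Bgn (biglycan) ranged from 9.90 to 19.3 FPKM in combination, 8.77 to 13.6 FPKM in semaglutide, 19.1 to 64.9 FPKM in HIIT and 12.1 to 24.4 FPKM in control libraries, and also passed none.

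Among elastic fibre genes and glycoproteins, Fbn1 (fibrillin-1, the microfibril protein) had 2.47, 1.45 and 1.6 FPKM in combination, 1.64, 1.61 and 1.82 FPKM in semaglutide, 5.03, 3.62 and 6.5 FPKM in HIIT and 4.87, 3.38 and 2.28 FPKM in control libraries. Both semaglutide-treated groups lay below HIIT, and semaglutide below control. Fbn1 fell in combination against HIIT (-1.08 ± 0.22, adjusted p = 0.0314) and in semaglutide against HIIT (-1.14 ± 0.22, adjusted p = 0.0209). These calls stand in 8 and 7 of 12 fits that leave out 1 library, in that order. Fn1 (fibronectin, made by fibroblasts and, as the plasma form, by liver) was at 3.2, 2.1 and 2.82 FPKM in combination, 1.7, 2.22 and 1.93 FPKM in semaglutide, 12.1, 3.36 and 5.63 FPKM in HIIT and 7.69, 7.54 and 2.83 FPKM in control muscles. The change in semaglutide against control did not pass (-1.16 ± 0.39, adjusted p = 0.133), and it was -0.38 (adjusted p = 0.70) without the 3 liver-rich libraries. Fn1 fell with semaglutide averaged over exercise (-1.07 ± 0.27, adjusted p = 0.0267), a call that stands in 5 of 12 fits that leave out 1 library and is -0.46 (adjusted p = 0.172) without the liver-rich ones. Summed liver marker FPKM was 49.8 to 174 in combination, 22.3 to 169 in semaglutide, 85.1 to 544 in HIIT and 221 to 1560 in control libraries. In the semaglutide-treated libraries most of that sum was 1 gene, Hp, at 48.1 to 170 FPKM in combination and 20.6 to 163 FPKM in semaglutide. Alb was at 0.773 to 3.46 FPKM and 0.981 to 3.57 FPKM in these groups. The part of the liver markers in the Fn1 values was not tested. Sparc, a collagen-binding glycoprotein, had 163, 93.6 and 90.7 FPKM in combination, 69.3, 75.2 and 120 FPKM in semaglutide, 206, 191 and 143 FPKM in HIIT and 88.6, 172 and 65.9 FPKM in control libraries. Eln (elastin) was at 10.6, 5.93 and 6.13 FPKM in combination, 8.8, 9.99 and 9.52 FPKM in semaglutide, 21.1, 8.33 and 10.7 FPKM in HIIT and 19.6, 14.5 and 9.23 FPKM in control muscles. Neither passed a test, and control libraries spanned from the lowest Sparc level of all 12 to within the HIIT range. Postn (periostin), a glycoprotein of remodelling tissue, ranged from 0.863 to 8.87 FPKM and passed none.

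Matrix proteases and their inhibitors were split. Timp1, an inhibitor induced in injury, had 0.373, 0.479 and 0.217 FPKM in combination, 0.0432, 0.19 and 0.257 FPKM in semaglutide, 3.03, 1.38 and 1.14 FPKM in HIIT and 0.45, 0.896 and 0 FPKM in control libraries. HIIT libraries stood above all others, control replicate 3 was listed at 0, and Timp1 fell in semaglutide against HIIT (-1.24 ± 0.26, adjusted p = 0.0261). Since only HIIT libraries carried it past the filter, that difference is a description of how it was kept. Timp2 was at 18.3, 18.9 and 16.7 FPKM in combination, 17.1, 19.1 and 16.8 FPKM in semaglutide, 42.2, 20.4 and 25.8 FPKM in HIIT and 23.3, 26.1 and 19 FPKM in control muscles. Combination and semaglutide libraries lay below all HIIT libraries. Timp2 fell with semaglutide averaged over exercise (-0.48 ± 0.15, adjusted p = 0.0472), a call that stands in 3 of 12 fits that leave out 1 library and in 4 of 8 other settings, and is -0.22 (adjusted p = 0.286) without the liver-rich libraries. Timp3, an inhibitor bound to the matrix, had 35.4, 30.2 and 28.5 FPKM in combination, 42.6, 38.7 and 40.4 FPKM in semaglutide, 35.6, 27.3 and 26 FPKM in HIIT and 38.8, 38.1 and 38.8 FPKM in control libraries. Its combination libraries lay below all semaglutide and all control libraries, and HIIT libraries below all semaglutide and control libraries, the reverse of the collagens for HIIT. The Timp3 change was -0.38 ± 0.12, adjusted p = 0.437 in HIIT against control, 0.45 ± 0.12, adjusted p = 0.051 in semaglutide against HIIT and -0.37 ± 0.08, adjusted p = 0.292 for HIIT averaged over semaglutide. None of these passed. Mmp14, a membrane-bound collagenase, was at 4.04, 3.2 and 3.42 FPKM in combination, 3.43, 3.65 and 3.5 FPKM in semaglutide, 6.61, 2.84 and 3.62 FPKM in HIIT and 4.44, 4.9 and 3.45 FPKM in control muscles. All of its groups overlapped. Mmp2, the gelatinase it activates, ranged from 9.62 to 10.2 FPKM in combination, 9.85 to 10.6 FPKM in semaglutide, 10.1 to 33.5 FPKM in HIIT and 10.3 to 17.2 FPKM in control libraries, with no test passed.

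In combination against HIIT, which asks what semaglutide adds to training, all 3 tested type VI genes, 3 of 5 processing genes and 1 of 7 fibrillar genes (Col3a1) fell. Of the 40 tested matrix genes, 10 fell and none rose, at 25% of them, where 1.96% of all tested genes fell, 1.05% rose and 3.01% changed either way. The 10 were Col3a1, Col6a1, Col6a2, Col6a3, Col15a1, P4ha1, Pcolce, Serpinh1, Dpt and Fbn1, which are 1 of 7 fibrillar, 3 of 3 type VI, 1 of 2 multiplexin and 3 of 5 processing genes, Dpt and Fbn1. The median change over the tested matrix genes was -0.76, beside -0.12 over all tested genes, and 19 of them (18 without Timp1) had no overlap between the groups on the low side, where 18.7% of all genes did, and none on the high side, where 7.49% did. At an unadjusted p below 0.05, 24 (23 without Timp1) were lower, where 20.4% of all genes were, and none higher, where 6.7% were. Leaving out combination replicate 2 or 3 left 1 call, Col6a3 in both, where 0.169% and 0.375% of all genes were called. There were 3 calls without HIIT replicate 1 (0.647% of all genes) and 2 without HIIT replicate 3 (0.628%). There were 19 without combination replicate 1 (14.8% of all genes) and 16 without HIIT replicate 2 (3.98%). Without the 3 liver-rich libraries 3 calls stood, Col6a3, Pcolce and Serpinh1, with a median of -0.58 and 0.394% of all genes called.

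In semaglutide against HIIT, both type I chains, Col3a1, 1 of 3 type V genes (Col5a1), all 3 tested type VI genes and 3 of 5 processing genes fell. Of the 40 tested matrix genes 14 fell, 35% of them, and none rose, where 2.24% of all tested genes fell, 2.35% rose and 4.59% changed either way. Without Timp1, whose HIIT level decided that it was tested, 13 of 39 fell. They were Col1a1, Col1a2, Col3a1 and Col5a1 of 7 fibrillar genes, the 3 type VI genes, Loxl1, Pcolce and Serpinh1 of 5 processing genes, Dpt, Lum, Fbn1 and Timp1. The median change was -0.75, beside -0.03 over all tested genes, and 26 genes (25 without Timp1) lay fully below HIIT, where 16.8% of all genes did. Col8a1, which only libraries without semaglutide carried past the filter, was among the 26. This comparison and the previous one share the HIIT libraries. Col6a3, Dpt, Pcolce and Serpinh1 passed in each of 12 fits that left out 1 library. The count was 4 without semaglutide replicate 1 (0.619% of all genes called), 8 without semaglutide replicate 2 (1.39%) and 8 without HIIT replicate 3 (1.62%). Without HIIT replicate 1 it was 9, 8 lower and 1 higher (2.19%). Without the 3 liver-rich libraries 8 stood, Timp1 among them (Col1a1, Col1a2, Col3a1, Col6a3, Dpt, Pcolce, Serpinh1 and Timp1) with a median of -0.73, where 0.825% of all genes were called.

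**Figure D4:**
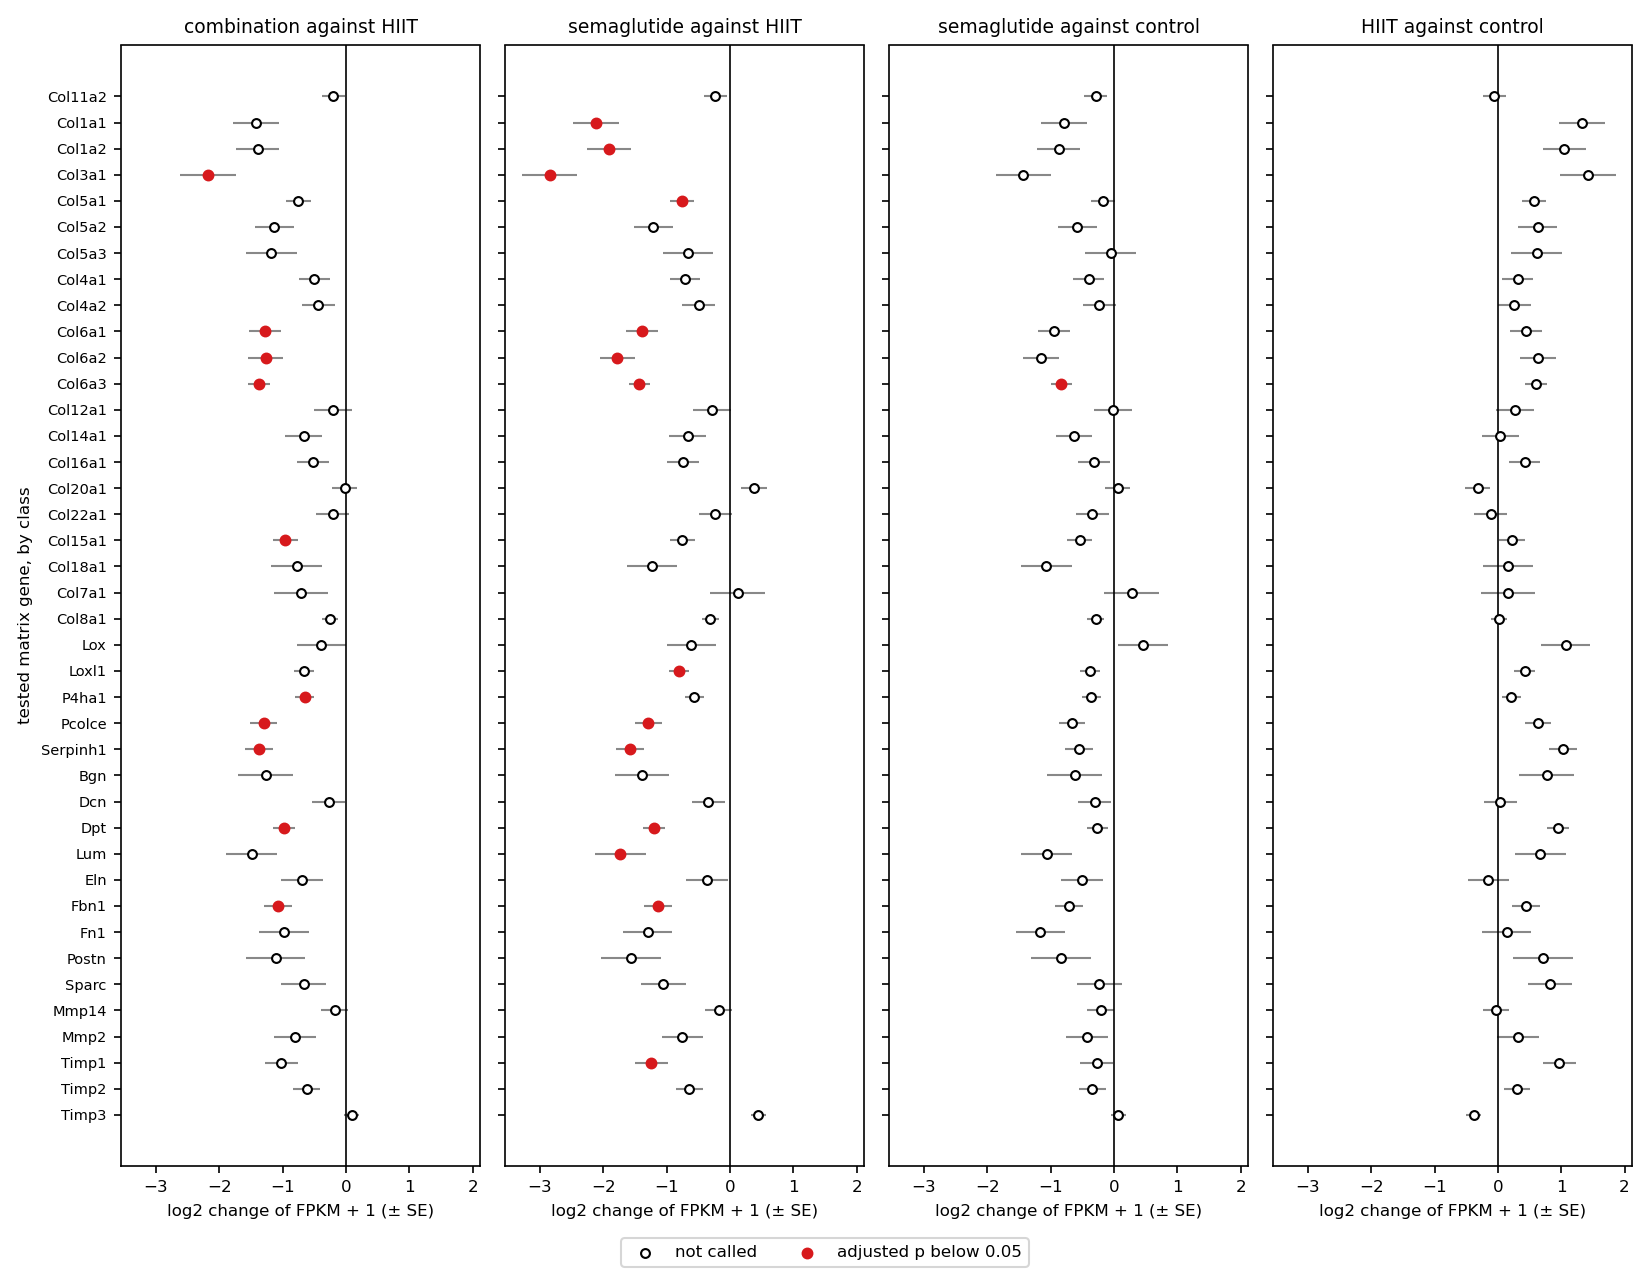
Change of each tested matrix gene in log2(FPKM + 1) with its limma SE, in 4 comparisons, with filled red points at an adjusted p below 0.05 and open points otherwise. Against HIIT most points lie left of 0 with 10 filled for combination and 14 for semaglutide, 1 is filled for semaglutide against control and none for HIIT against control, where most lie to the right.

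The comparisons against control share the control libraries. In semaglutide against control the matrix genes leaned lower, and 1 of 40, Col6a3, passed, where 2.59% of all tested genes fell, 1.13% rose and 3.72% changed either way. At an unadjusted p below 0.05, 16 were lower (12.3% of all genes) and none higher (6.62% of all genes), and 13 lay fully below control (18.1% of all genes). The 16 and the 13 both hold Col8a1, which only libraries without semaglutide carried past the filter. The median change was -0.39 beside -0.05 over all tested genes. It was -0.06 without the 3 liver-rich libraries, where no matrix gene passed and 1.36% of all genes did. The count was 0 without semaglutide replicate 1 or 2, control replicate 1 or 2 or combination replicate 2, where 0.309 to 1.05% of all genes were called, and 8 without control replicate 3 (4.05%). It was 3 without combination replicate 1 (3.53%) and 2 without HIIT replicate 1 (5.18%) or 2 (3.57%).

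In combination against control 2 of the 40 fell, Col6a3 and Col15a1, or 5% of them, where 5.18% of all tested genes fell, 1.09% rose and 6.26% changed either way, so the matrix share was that of the background. At an unadjusted p below 0.05, 9 were lower, where 21.6% of all genes were, and none higher, where 4.33% were. The median change was -0.34 beside -0.13 over all genes, and the range was -0.84 to 0.68, the top being Lox. Without the 3 liver-rich libraries no matrix gene passed, where 1.52% of all genes did, and the median was -0.01, beside -0.07 over all genes. The count was 0 without combination replicate 2 or 3 or control replicate 1 or 2, where 0.0375 to 0.375% of all genes were called. It was 7 without combination replicate 1 (15.4%), 3 without control replicate 3 (4.65%), and 1 without HIIT replicate 3 (5.47%) or any 1 semaglutide library (3.73 to 3.98%).

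In HIIT against control, the comparison that asks what training alone does, matrix genes leaned higher but none passed limma's test, as for all genes (0% called). At an unadjusted p below 0.05, 13 (12 without Timp1) were higher, where 3.29% of all genes were, and 1 (Timp3) lower, where 5.63% of all genes were. Timp3 alone lay fully below control, where 7.12% of all genes did. Fully above control were 10 genes, Col1a1, Col1a2, Col3a1, Col5a1, Col6a2, Col6a3, Pcolce, Serpinh1, Dpt and Timp1, where 4.37% of all genes were. Timp1 was tested because of its HIIT level, and 9 of the other 39 genes lay fully above. The median was 0.42 beside -0.03 over all genes. Leaving out any 1 library gave 0 calls and a median between 0.27 and 0.55. Without the 3 liver-rich libraries, with 1 control library left, there were 0 calls (0% of all genes) and the median was 0.67, beside -0.02 over all genes, with Col1a1 at 1.83 (adjusted p = 0.0502). Rescaling by trimmed means (TMM) moved the median of all tested genes by 0.03 to 0.19 over the comparisons, and the matrix median stayed 0.44 above it here and 0.64 and 0.73 below it in combination and semaglutide against HIIT.

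Between combination and semaglutide, where training is added to the drug, no matrix gene passed and 1 of 10666 genes did (0.00938%). Timp3 was lower and none was higher at an unadjusted p below 0.05, where 10.3% of all genes were lower and 1.78% higher. Col1a1 (0.70 ± 0.36, adjusted p = 0.456) and Col1a2 (0.53 ± 0.34, adjusted p = 0.57) lay fully above the semaglutide libraries, where 3.91% of all genes did, and Col3a1 overlapped (0.67 ± 0.44, adjusted p = 0.588). The median was 0.08 beside -0.07 over all genes. Without combination replicate 1 there were 2 calls, 5% of the matrix genes, where 5.22% of all genes were called.

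Averaged over exercise, 20 of the 40 tested matrix genes (19 without Timp1) fell with semaglutide and none rose, where 12.2% of all tested genes fell, 4.69% rose and 16.8% changed either way. Before adjustment, 28 (27 without Timp1) had a p below 0.05 and were lower, where 25% of all genes were, and none higher, where 9.26% were. Col8a1 was among the 28, and its lower level with semaglutide was built into its choice. The 20 were 5 of 7 fibrillar, 0 of 2 type IV, 3 of 3 type VI, 0 of 5 FACIT, 2 of 2 multiplexin and 0 of 2 other collagens, 4 of 5 processing genes, 2 of 4 proteoglycans with Dpt, 2 of 5 glycoproteins and 2 of 5 proteases and inhibitors. Col3a1 had the widest change (-1.81 ± 0.31, adjusted p = 0.00791) and Col6a3 the smallest adjusted p (-1.10 ± 0.12, adjusted p = 0.000631). The median was -0.61 beside -0.08 over all genes, and 14 of the 20 passed in each of 12 fits that left out 1 library. Without the 3 liver-rich libraries 2 passed, Col6a3 and Pcolce, with a median of -0.31 and 3.27% of all genes called.

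HIIT averaged over semaglutide gave 0 calls in limma, as over all genes (0%). At an unadjusted p below 0.05, 11 (10 without Timp1) were higher (2.61% of all genes) and 2 lower (9.97% of all genes), with Col3a1 at 1.05 ± 0.31, adjusted p = 0.35 and Col1a1 at 1.02 ± 0.25, adjusted p = 0.335. The interaction, which asks whether the semaglutide change differs with training, also gave 0 calls (0% of all genes). Col6a3, Serpinh1 and Dpt were lower at an unadjusted p below 0.05, where 5.06% of all genes were, and none was higher, where 2.64% were. The widest interaction among the 40 was that of Col5a3 (-1.13 ± 0.57, adjusted p = 0.639). No matrix gene passed for the interaction, nor did any of the 10666 tested genes. This does not show that the semaglutide change was alike with and without training. The median interaction over the matrix genes was -0.31 beside -0.06 over all genes, with 32 of the 40 below 0 and 8 above. It was -0.54 beside -0.08 without the 3 liver-rich libraries. Without combination replicate 1 there was 1 call in each, where 2.35% of all genes were called for HIIT averaged over semaglutide and 0.225% for the interaction.

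Other genes of the matrix were followed as lists for semaglutide averaged over exercise, beside the background of 12.2% lower and 4.69% higher. Calls in these lists and in the marker lists below were not recalculated without the 3 liver-rich libraries or with 1 library left out. Of 21 tested enzymes and helpers of collagen synthesis, 8 fell and 1 rose. Creb3l1 and Loxl3, among the 8, reached 1 FPKM only in libraries without the drug, so a lower level was built into their choice. Ddr2, a collagen receptor kinase, changed by -0.56 ± 0.12, adjusted p = 0.0122, Bmp1, the propeptide protease that Pcolce enhances, by -0.68 ± 0.20, adjusted p = 0.0421 and Crtap, part of the prolyl 3-hydroxylase complex, by -0.56 ± 0.17, adjusted p = 0.0415. Mia3, which helps load procollagen into transport carriers, rose by 0.20 ± 0.06, adjusted p = 0.046. Of 14 tested basement membrane genes other than collagens, 5 fell and 1 rose. Lama4, a laminin chain of vessels, changed by -0.60 ± 0.13, adjusted p = 0.0154 and Hspg2 (perlecan) by -0.51 ± 0.11, adjusted p = 0.0141, while Dag1 (dystroglycan, a laminin receptor) rose by 0.25 ± 0.07, adjusted p = 0.0323. Of 37 tested further proteoglycans and glycoproteins, 11 fell and 1 rose. Igfbp5, a binding protein of insulin-like growth factors, fell (-1.24 ± 0.18, adjusted p = 0.00353), and Ccn1, a matricellular protein, rose (1.11 ± 0.18, adjusted p = 0.00594). Of 17 tested further proteases and inhibitors, 5 fell and none rose, among them Mmp15 (-0.49 ± 0.10, adjusted p = 0.0119) and Adamts5 (-0.49 ± 0.15, adjusted p = 0.0396). Mmp3, also among the 5, reached 1 FPKM only in libraries without the drug.

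Of 26 tested genes of TGF-beta signalling, a main inducer of collagen transcription, 3 fell and 2 rose with semaglutide averaged over exercise, near the background. Itgb6, part of an integrin that activates latent TGF-beta, fell (-0.74 ± 0.14, adjusted p = 0.00774), and Tgif1, a corepressor of the pathway, rose (0.49 ± 0.14, adjusted p = 0.0391). Tgif1 rose in semaglutide against control (1.01 ± 0.20, adjusted p = 0.0302). Its combination libraries (2.96 to 5.47 FPKM) overlapped with the HIIT libraries (3.95 to 4.26 FPKM). Of 21 tested matrix receptors, 5 fell and 2 rose. Itga3, among the 5, reached 1 FPKM only in libraries without the drug. Antxr2, a receptor that binds type IV collagen and laminin, fell (-0.59 ± 0.11, adjusted p = 0.00827), and Itgb5 rose (0.36 ± 0.08, adjusted p = 0.0174).

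Markers of fibroblasts, which make matrix, were also lower with semaglutide averaged over exercise. Against control, 0 of the 17 tested passed in semaglutide and 0 in combination. Summed FPKM of 18 fibroblast and fibro-adipogenic progenitor markers was 415 to 597 in combination, 447 to 474 in semaglutide, 559 to 1160 in HIIT and 431 to 718 in control libraries. Of the 17 tested, 8 fell with semaglutide averaged over exercise, where 12.2% of all tested genes fell. All 17 changes were below 0, with a median of -0.52 beside -0.08 over all tested genes. Dpp4, among the 8, reached 1 FPKM only in libraries without the drug, so its lower level was built into its choice. Cd248, a fibroblast surface protein, had 1.98, 1.82 and 1.59 FPKM in combination, 1.6, 1.7 and 1.66 FPKM in semaglutide, 5.69, 3.71 and 5.06 FPKM in HIIT and 4.18, 2.14 and 1.84 FPKM in control libraries, and it fell in combination against HIIT (-1.05 ± 0.20, adjusted p = 0.0265) and in semaglutide against HIIT (-1.12 ± 0.20, adjusted p = 0.0163). Gsn (gelsolin), the most abundant of the list, was at 375, 252 and 236 FPKM in combination, 253, 258 and 270 FPKM in semaglutide, 788, 330 and 484 FPKM in HIIT and 351, 463 and 231 FPKM in control muscles. Summed macrophage markers (14 genes) were 39.3 to 154 FPKM in combination, 35.5 to 54.0 FPKM in semaglutide, 57.0 to 243 FPKM in HIIT and 50.3 to 165 FPKM in control libraries, and 0 of 12 tested passed. Summed white adipocyte markers (14 genes) were 272 to 916 FPKM in combination, 309 to 549 FPKM in semaglutide, 689 to 1060 FPKM in HIIT and 316 to 984 FPKM in control libraries, so HIIT libraries stood above all semaglutide ones. Of 12 tested adipocyte markers, Cidea fell and Plin4 rose with semaglutide averaged over exercise. Tendon markers (11 genes) summed to 31.2 to 62.4 FPKM in combination, 38.1 to 61.9 FPKM in semaglutide, 42.5 to 85.2 FPKM in HIIT and 25.9 to 82.1 FPKM in control libraries. Of 8 tested tendon markers, Kera fell in that contrast, and it reached 1 FPKM only in libraries without the drug. None of these lists holds a gene at 0 in all 12 libraries. The part of fibroblast, macrophage, adipocyte or tendon content in the matrix changes was not tested.

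**Figure D5:**
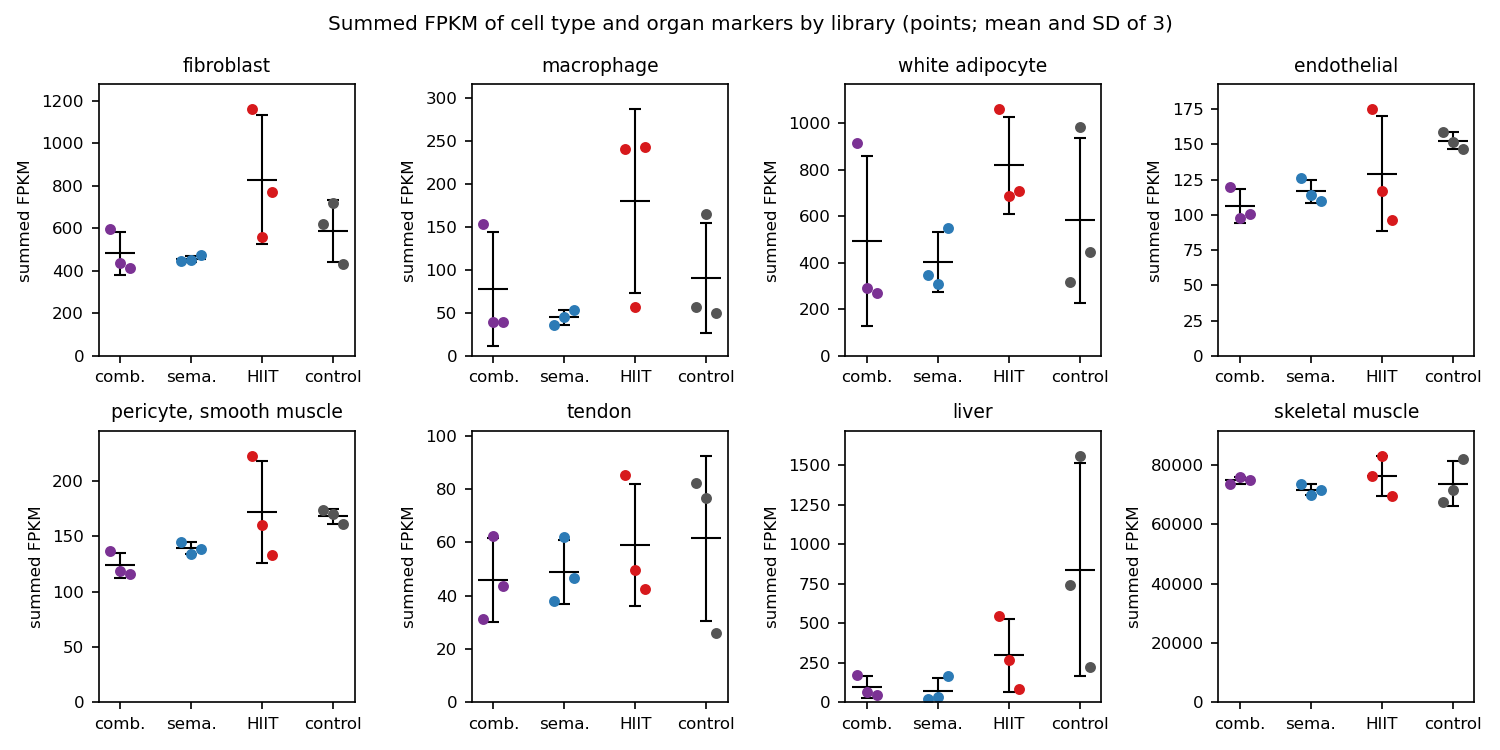
Summed FPKM of marker lists for 6 cell types or tissues, liver and skeletal muscle in each library (points), with the mean and SD of 3 libraries per group, for combination, semaglutide, HIIT and control muscles. Fibroblast sums are 447 to 474 in semaglutide and 559 to 1160 in HIIT libraries, liver sums are highest in control replicates 1 and 2, and skeletal muscle sums stay between 67300 and 83000.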

How the data were processed

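Poly(A) RNA of db/db mouse muscle was sequenced in 12 stranded paired-end libraries, 3 per group, per the labels' protocols. The authors deposited a table of FPKM values per gene and library. The submitters' processing notes list STAR 2.7.9a, StringTie 2.1.4, featureCounts 2.0.1 and Trimmomatic 0.36, with FastQC and CASAVA, and the build GRCm39. What each tool was used for, and which annotation, is not given in the sources used here. FPKM divides by total expression, so abundant genes lower the rest. Raw counts were not used here.

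From the deposited FPKM, genes at 1 FPKM or more in at least 3 of 12 libraries were kept, and log2 values were taken after adding a pseudocount of 1, which understates changes of low genes. limma 3.58.1 in R 4.3.3 (trend, robust) was fitted to all 4 groups, with Benjamini-Hochberg adjustment over the 10666 kept genes. The step was tested on simulated data. Each of 9 comparisons was made in that fit. Depth was estimated from the smallest steps of FPKM values and covers counting error only. TMM factors were computed without weights. Values in every library are given for genes called in any comparison, for the 3 largest and 3 smallest changes of each comparison and for types I, III, IV, V and VI collagen; of other lists, at most 3 called genes in each direction and the most abundant markers are named. The members, lists and named genes were chosen with earlier results of these data known.

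Replicate numbers appear in the titles, but the 18 same-numbered pairs had correlations of deviations from -0.23 to 0.29, and 2 of 12 libraries matched their own number best, so the numbers were not taken as pairs. Alternatives were other pseudocounts, filters and scalings, no trend, only the groups compared, a replicate block, each library left out, and the 3 liver-rich libraries left out.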

Additional observations from a re-analysis of the deposited data

How the results depend on the processing

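Over the single genes, 1143 recalculated values kept their direction and side of the threshold, 24 newly passed, 229 lost the call and 0 turned direction. These values pool called changes with printed ones that were not called. A change that was uncalled and stayed uncalled counts among the 1143, so that number does not measure how many calls were kept. The number of called matrix genes depended on settings as follows; the cause was not tested. For semaglutide against control (1 called), it was 2 with a pseudocount of 0.1, 0 at a minimum of 5 FPKM, 3 with TMM scaling, 2 when mitochondrial genes were left out of the scaling, 2 without trend and 0 without the 3 liver-rich libraries. For combination against control (2 called), it was 1 with no filter, 0 at 5 FPKM, 1 with TMM, 1 without mitochondrial genes in the scaling, 0 with only the groups compared and 0 without the liver-rich libraries. For combination against HIIT (10 called), it was 6 with no filter, 2 with only the groups compared and 3 without the liver-rich libraries. Without those libraries, semaglutide against HIIT had 8 of 14 and semaglutide averaged over exercise 2 of 20.

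Leaving out 1 library at a time gave 0 to 8 calls for semaglutide against control, 0 to 7 for combination against control, 1 to 19 for combination against HIIT, 4 to 19 for semaglutide against HIIT, 14 to 25 for semaglutide averaged over exercise, 0 to 2 for combination against semaglutide, 0 to 1 for HIIT averaged over semaglutide, 0 to 1 for the interaction and 0 to 0 for HIIT against control. With a replicate block, the counts were 1 for semaglutide against control, 2 for combination against control, 8 for combination against HIIT, 14 for semaglutide against HIIT (13 lower and 1 higher), 21 for semaglutide averaged over exercise and 0 in the other contrasts. Depth limits genes near 1 FPKM, such as Col12a1, Col20a1, Col8a1 and Timp1.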

Other observations

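Vessel genes also moved with semaglutide averaged over exercise. Of 15 tested endothelial markers 6 fell and none rose, among them Kdr, a receptor of vascular growth factor, by -0.64 ± 0.13 (SE, adjusted p = 0.0116) and Emcn by -0.57 ± 0.13 (adjusted p = 0.0152), both from limma over all tested genes. Of 11 tested pericyte and smooth muscle markers 4 fell and none rose, with Rgs5 at -0.34 ± 0.07 (adjusted p = 0.0118). Cspg4, among the 4, reached 1 FPKM only in libraries without the drug. The background was 12.2% lower and 4.69% higher. Endothelial sums were 97.7 to 120 FPKM in combination, 110 to 126 FPKM in semaglutide, 96.1 to 175 FPKM in HIIT and 147 to 159 FPKM in control libraries. Of 11 tested liver markers 9 fell and none rose. Among the 9, Apoa1, Ttr, Serpina1a, Fgb, Fgg, Apoc3 and Ahsg reached 1 FPKM only in libraries without the drug. A lower level was thus built into their choice. Of 5 tested satellite cell markers 1 fell and 1 rose, and none of 5 Schwann cell and nerve markers passed. The 1 tested cartilage and bone marker, Alpl, fell (-0.54 ± 0.15, adjusted p = 0.0339). None of 12 skeletal muscle markers passed. Their part in the matrix values was not tested.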
